A study of Mus musculus with 46 samples.

Results

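Genes near the variants that genome-wide studies tie to late-onset Alzheimer's disease were followed in microglia, the macrophages that reside in the brain, of mice. The set was a list of 37 mouse orthologs named at risk loci, with Trem2, Apoe and the Ms4a genes left out. Membership followed the list and no cut on measured values, though the list was chosen with earlier results of these data known. All 37 symbols were found among the 54134 genes of the deposited count table, and 33 of them had enough reads to be tested. The 4 others, Anxa11, Epdr1, Nck2 and Fermt2, had 7, 8, 11 and 70 reads summed over all libraries.

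There were 46 RNA-seq libraries, 22 from wild-type mice (WT) and 24 from 5xFAD mice (labelled AD). 5xFAD mice carry transgenes with familial Alzheimer mutations under the neuronal Thy1 promoter, so the microglia themselves are not the intended site of transgene expression. Mice of each genotype and of both sexes were kept on a fiber-free diet (zero fiber), on the control diet or on one containing HAMSAB, a high-amylose maize starch to which acetyl and butyryl groups are attached. That gave 12 groups of 4 libraries, except zero_fiber_WT_M with 2. Library names give the diet, then the genotype, then F or M for the sex, and a running replicate number in accession order. The labels give neither the age of the mice, the time on the diet nor how the microglia were isolated. They also do not say that each library is a separate mouse. Each p-value therefore weighs a difference against the spread among libraries, which may be technical.

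Most Alzheimer risk variants lie outside coding sequence, and many fall in regions that are active enhancers in myeloid cells. The genes at these loci fall into a few roles. Some shape or sort endocytic membranes, some relay signals from immune receptors, some act in the lysosome, and others move lipids, remodel actin or act in the nucleus. In brain tissue several of them, such as Clu, are known mainly from astrocytes or neurons, so their level in microglia is a separate question from their link to disease.

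Library totals lay between 52114 and 6950429 counts (median 2344837.5). The second lowest total was 783849. 2 libraries were doubted, zero_fiber_AD_M replicate 2, which had the 52114 counts, and the library labelled zero_fiber_AD_F replicate 1, whose sex-linked transcripts did not match its label. The main values that rest on them are given with and without them below. The defining microglial genes P2ry12, Tmem119, Cx3cr1, Csf1r, Sall1 and Siglech had reads in every library, with medians of 5240, 3160, 7720, 8700, 623 and 1530 CPM (counts per TMM-adjusted library size, scaled alike in every library). Defining genes of lymphocytes were nearly absent, with Cd3e at 0 in 43 libraries and Ms4a1 at 0 in 44, whereas Cd79b stood at a median of 56.9 CPM. Neuronal markers (7 genes) summed to 2.79 to 31.1 CPM, and the 6 astrocyte markers to 151 to 377 CPM, mostly Slc1a3 (median 243 CPM), with Gfap at 0 in 26 libraries. The oligodendrocyte markers summed to 139 to 267 CPM, the endothelial ones to 0 to 120 CPM (mostly Pecam1, with Cldn5 at 0 in 43 libraries) and those of the choroid plexus to 20.5 to 312 CPM (mostly Ttr). Perivascular macrophage markers summed to 160 to 464 CPM, mostly Stab1 (median 194 CPM).

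Levels of the risk locus genes spanned a wide range, with Grn and Bin1 highest and a tail of genes near the limit of detection. To compare genes with each other, CPM was divided by the length of merged exons, giving CPM per kilobase. The ranges below leave out the library of 52114 counts. Exons were merged over all annotated transcripts, so the order of genes depends on this divisor. In CPM the medians of Grn, Bin1 and Picalm were 2090, 1080 and 948. The tested gene of highest median stood 412-fold above the lowest. Of the 33 tested genes, 14 exceeded 75% of the 11982 tested genes with a known length, 16 lay between, and 3 (Sorl1, Clu and Jazf1) lay under 25%. In all 46 libraries the 37 genes together made up 6090 to 7970 CPM, with a median of 7500 CPM.

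**Figure D1:**
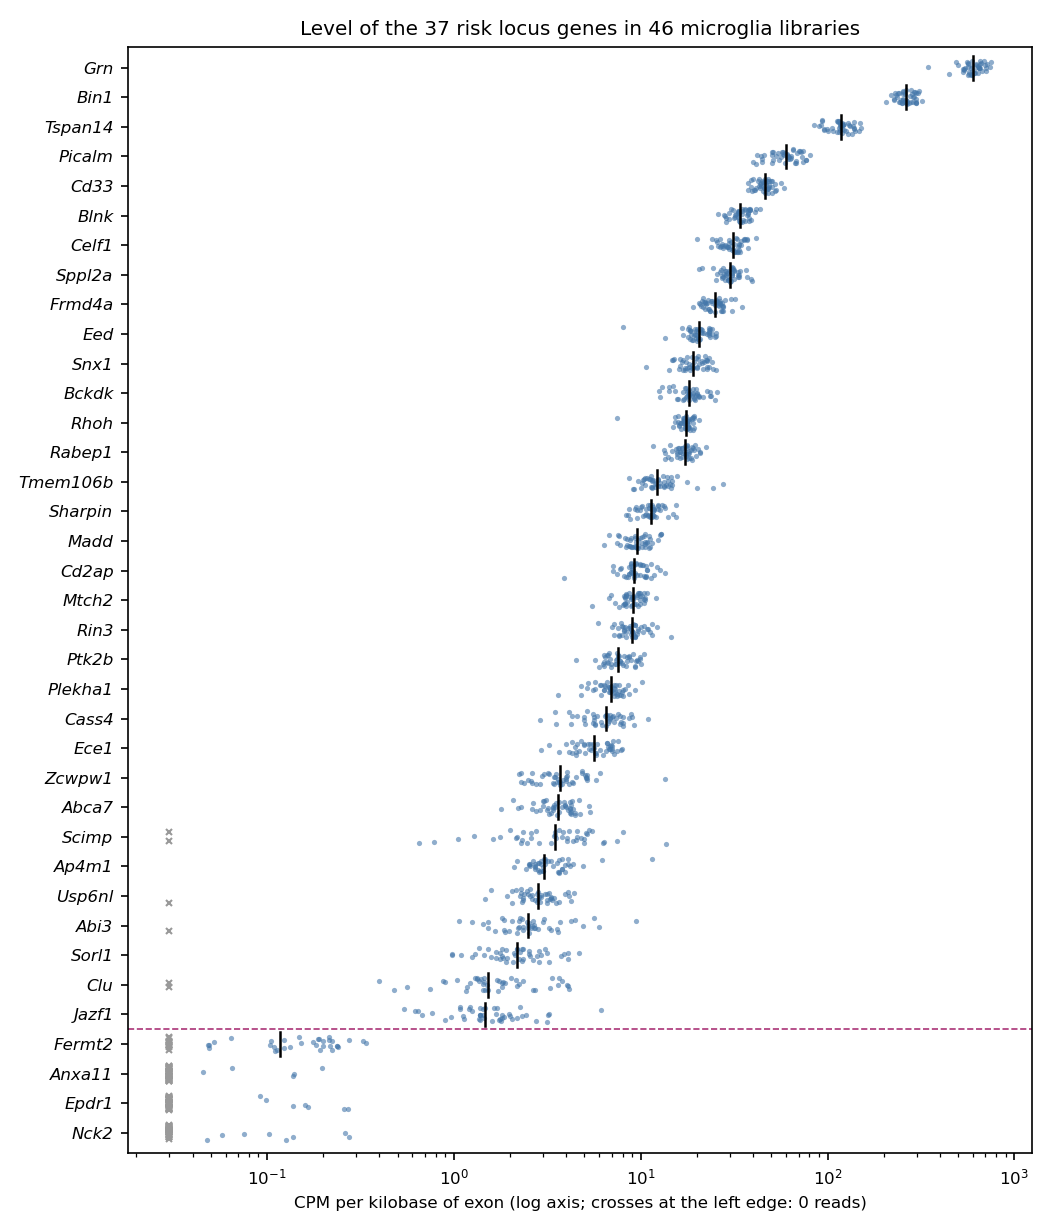
Level of each of the 37 genes in CPM per kilobase of exon (log axis), ordered by median; each point is 1 of 46 libraries, black bars are medians, and crosses at the left edge are libraries with 0 reads. Grn (median 601), Bin1 (263) and Tspan14 (118) stand above the rest, and the 4 genes under the dashed line were too low to be tested.

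The genes of endocytosis and endosomal sorting were led by Bin1, which encodes a membrane-bending protein of the amphiphysin family (chromosome 18, 32377230 to 32435737, GRCm38). Its median was 263 CPM per kilobase (lowest 218, highest 321), a level above 98.9% of tested genes. Picalm, a clathrin assembly protein (chromosome 7, 90130213 to 90213465), followed at 60.3 (39.9 to 80). Per kilobase the ranges of these 2 genes did not overlap. In CPM they did, with 898 to 1320 for Bin1 and 648 to 1260 for Picalm on the control diet. Snx1, a sorting nexin of the retromer pathway, stood at 19.1 CPM per kilobase and Rabep1, an effector of the early endosomal GTPase Rab5, at 17.3. The Cd2ap adaptor had a median of 9.26 and Rin3, an exchange factor for Rab5, 9.01. Ap4m1, a subunit of the AP-4 adaptor, was at 3.05 and Usp6nl, a GTPase-activating protein, at 2.81. Sorl1 was the lowest of the 9 per kilobase, at 2.17 (0.983 to 4.69), though not in CPM, where its median was 24.6 against 16.3 for Ap4m1. It encodes SORLA, a receptor that carries cargo such as APP from endosomes back to the Golgi (chromosome 9, 41964720 to 42124297).

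Among the 8 genes of immune receptors and signalling, Tspan14, a tetraspanin that helps the protease ADAM10 mature, was highest at a median of 118 CPM per kilobase (84.6 to 151; chromosome 14, 40906445 to 40966807). Cd33, an inhibitory sialic acid receptor of myeloid cells (chromosome 7, 43524216 to 43544428), stood at 46.2 (37.6 to 58.8). The median of Blnk, an adaptor downstream of the kinase Syk, was 34.2 and that of Sppl2a, an intramembrane protease that cleaves CD74, was 30. Their ranges, 26.1 to 43.7 and 20.6 to 39.4, overlapped. Rhoh, a small GTP-binding protein of blood cells without GTPase activity, was at 17.5 with the tightest spread of all 33, a biological coefficient of variation of 8.62% in the edgeR fit, which only 0.421% of tested genes undercut. Sharpin, a subunit of the linear ubiquitin ligase, stood at 11.4 and Ptk2b, the focal adhesion kinase Pyk2, at 7.59 CPM per kilobase. Scimp, a transmembrane adaptor of antigen-presenting cells, was lowest at 3.49, with 0 reads in 2 libraries and 467 reads in all.

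Of 5 adhesion and cytoskeleton genes, Frmd4a, a scaffold protein of cell polarity, had a median of 25.1 CPM per kilobase and Cass4, a docking protein of focal adhesions, 6.56. Abi3, related to the Abi subunits of the actin-nucleating WAVE complex, was read at 2.5 (chromosome 11, 95830074 to 95842476). That value is uncertain, because 70.1% of its annotated exon bases lie opposite those of Zfp652, whose median count was 617 against 22 for Abi3, and the strand setting of the counting is not given in the sources used here. The integrin coactivator Fermt2 was read in 33 libraries at no more than 5 reads, and the adaptor Nck2 in 8 at no more than 3. Both were below the level needed for a test, and at these depths a low level of expression cannot be told apart from none.

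Progranulin, encoded by Grn (chromosome 11, 102430315 to 102437048), gave the highest level of the set, 601 CPM per kilobase (450 to 749), above 99.6% of tested genes. Grn protein is secreted and also delivered to lysosomes. Tmem106b, a lysosomal membrane protein that shares a genetic link to frontotemporal dementia with Grn, was at 12.2 (8.69 to 27.6; chromosome 6, 13069759 to 13089269). Ece1, the endothelin-converting peptidase, had a median of 5.65 and Clu, the secreted chaperone clusterin, 1.52, with 0 reads of Clu in 2 libraries and a coefficient of variation of 42.1%, the highest of the 33. Epdr1, a lysosomal ependymin-related protein, had reads in 7 of 46 libraries.

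The remaining genes ran from high to low level. The splicing regulator Celf1 stood at 31.1 CPM per kilobase and Eed, the histone-binding subunit of the Polycomb repressive complex PRC2, at 20.4. Jazf1, a nuclear zinc-finger protein, was the lowest of the tested genes at 1.46. Zcwpw1, a reader of methylated histone H3 known from meiosis, was at 3.7. Bckdk, the kinase that inhibits branched-chain keto acid breakdown, had a median of 18.2, Madd, an exchange factor for Rab GTPases with a death domain, 9.61, and Mtch2, an outer mitochondrial membrane protein, 9.06. The phosphoinositide-binding adaptor Plekha1 was at 6.94, and Abca7, a lipid transporter of the ABC family, at 3.61 CPM per kilobase. Anxa11, a calcium-dependent annexin, had reads in 5 of 46 libraries. Other genes on the opposite strand cover 22.1% of the exon bases of Ap4m1 (Taf6), 21.2% of those of Cass4 (Gm14455) and 8.2% of those of Zcwpw1 (Pilra), so reads of these pairs may also be mixed.

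Several of these genes are neighbours on a chromosome. Picalm and Eed lie 149.2 kb apart on chromosome 7, Celf1 lies 73.6 kb from Mtch2 and 117.9 kb from Madd on chromosome 2, Rabep1 and Scimp lie 32.2 kb apart on chromosome 11, and Ptk2b and Clu lie 171.7 kb apart on chromosome 14. Most of these neighbours stood at unlike levels, apart from Mtch2 and Madd at 9.06 and 9.61 CPM per kilobase. Zcwpw1 and Ap4m1, 349.4 kb apart on chromosome 5, were also close in level, at 3.7 and 3.05. Picalm was at 60.3 and Eed at 20.4, Celf1 at 31.1, Ptk2b at 7.59 and Clu at 1.52, and Rabep1 at 17.3 and Scimp at 3.49. The order of the Picalm and Eed levels held in every library outside the doubted one of lowest depth, since the lowest Picalm value (39.9) lay above the highest Eed value (25.5).

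Promoter sequence was searched for a core of the site bound by PU.1, the ETS factor that sets macrophage identity and is itself named at a risk locus, spelled GAGGAAG, and for the E-box CACGTG, the centre of the element bound by the lysosomal regulator TFEB. The window ran from 250 bases before to 50 bases after each start site (RefSeq, GRCm38.p6), either strand counted, and a gene was counted if any of its listed windows held the letters. 30 of the 37 genes had a window. GAGGAAG occurred in 6 of the 30 (Cd33, Frmd4a, Picalm, Sppl2a, Tspan14 and Zcwpw1), or 20%, against 15.4% of 27025 genes and 16% of the 8533 tested ones. CACGTG occurred in 4 of the 30 (Ece1, Picalm, Sorl1 and Usp6nl), or 13.3%, against 8.09% of the 27025 genes and 12.1% of the tested ones. A match is a run of letters and not a measured binding site. Shown here are stretches before listed start sites, 5′ to 3′ on the gene's strand with the match in capitals. They come from 2 of the 5 genes of highest CPM per kilobase and from Sorl1, the gene with the largest called difference below.
Tspan14 (chr14:40966899-40966965, minus strand): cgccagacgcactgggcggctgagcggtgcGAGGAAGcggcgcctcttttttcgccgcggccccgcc
Cd33 (chr7:43533361-43533421, minus strand): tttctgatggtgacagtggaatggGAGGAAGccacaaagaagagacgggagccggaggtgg
Sorl1 (chr9:42124298-42124346, minus strand): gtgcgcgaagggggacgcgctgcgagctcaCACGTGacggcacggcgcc
The match began 39 bases before the listed start site in Tspan14, 226 bases in Cd33 and 19 bases in Sorl1. The Cd33 start site is an internal one, since the window lies within the gene, whose span on the minus strand begins at 43544428.

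Levels of these genes in AD mice were close to those in WT mice. Differences were fitted with edgeR's quasi-likelihood test over all 46 libraries, with the sexes weighted equally, and a gene was called at a Benjamini-Hochberg adjusted p under 0.05 over 12121 tested genes. No risk locus gene was called for AD against WT on the control diet (0 of 33, against 0% of all tested genes), on zero fiber (0 of 33, against 0.00825%), on HAMSAB (0 of 33, against 1.68%) or over the mean of the diets (0 of 33, against 0.0165%). DESeq2 and limma voom also called 0 in each. An unadjusted p under 0.05 was reached by 0, 3, 3 and 2 of the 33 genes, respectively. The shares of all tested genes at that p were 5.4%, 4.7%, 12% and 7.28%. The 8 perivascular macrophage markers were all higher in AD than WT mice on the control diet, with none called (median log2 difference 1.46). Their sums, mostly Stab1, were 169 to 400 and 160 to 319 CPM, and the part of these markers in the comparisons was not tested. In bulk libraries such as these, fewer cells of a type and less RNA per cell cannot be told apart.

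Intervals were narrow for most of the set over the mean of the diets. There the 95% interval of the AD against WT difference lay within 1.25-fold in either direction for 27 of the 33 genes. The exceptions were Abi3, Sorl1, Abca7, Jazf1, Scimp and Clu, and of these Scimp alone reached past 1.5-fold. Within 1 diet the intervals were wider, and lay within 1.25-fold for 17 genes on control, 16 on zero fiber and 13 on HAMSAB. On zero fiber those of Abi3, Sorl1, Scimp and Clu reached past 2-fold. Bin1 had medians of 1090 CPM in control AD and 1150 CPM in control WT mice, with a log2 fold change of -0.01 ± 0.08 (SE). For Grn the medians were 2130 and 2160 CPM and the log2 fold change was -0.04 ± 0.09. Between the genotypes the median absolute log2 difference of the 33 genes was 0.05 over the mean of the diets, against 0.07 over all tested genes.

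The 3 genes of smallest p in each diet are given next, and none of them was called. On the control diet they were Tspan14, Scimp and Rabep1. Tspan14 had a median of 367 CPM in AD (306 to 395) and 318 CPM in WT (281 to 399), a log2 difference of 0.14 ± 0.08 (SE). Scimp was at 4.05 CPM (0 to 8.7) and 2.66 CPM (0.699 to 4.91), and Rabep1 at 115 (96.8 to 128) and 127 CPM (107 to 142). All 3 pairs of groups overlapped.

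On HAMSAB the smallest p belonged to Picalm, Sppl2a and Blnk. Picalm had a median of 894 CPM in AD (628 to 979) and 1040 CPM in WT (795 to 1210), a log2 difference of -0.31 ± 0.12 (SE; edgeR adjusted p = 0.239). Sppl2a stood at 269 CPM (242 to 337) against 235 CPM (178 to 291), and Blnk at 226 (192 to 262) against 201 CPM (172 to 225). The ranges overlapped for each, and Picalm on the control diet was at 891 CPM in AD and 940 CPM in WT.

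On zero fiber, Sorl1 had the smallest p, followed by Abca7 and Sharpin. Sorl1 stood at a median of 21.2 CPM in AD (11.1 to 46.4) and 35.4 CPM in WT (21.7 to 53.1). The fitted log2 difference was -0.93 ± 0.22 (SE), the largest genotype difference of the set by size, and was not called (edgeR adjusted p = 0.178). The groups overlapped, and the AD library at 46.4 CPM was the one of lowest depth, where this was 3 reads. Without the 2 doubted libraries the difference was -1.02 (adjusted p = 0.172). It was called with a title series term (-0.92, adjusted p = 0.0436) and when low-count genes were not filtered (-0.94, adjusted p = 8.89e-05). By sex, the Sorl1 medians were 22.2 CPM in AD and 26.7 CPM in WT females. In males they were 18.4 CPM in AD (4 libraries) and 49.6 CPM in WT (2 libraries). Abca7 was at 22.1 CPM in AD (14.8 to 23.8) and 28.4 CPM in WT (17.8 to 35.9), and Sharpin at 37.8 (32.8 to 59.2) and 47.1 CPM (32 to 59.1). Over the mean of the diets the order was Sorl1, Abca7 and Blnk, with Sorl1 at -0.35 ± 0.12 (SE; edgeR adjusted p = 0.562).

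**Figure D2:**
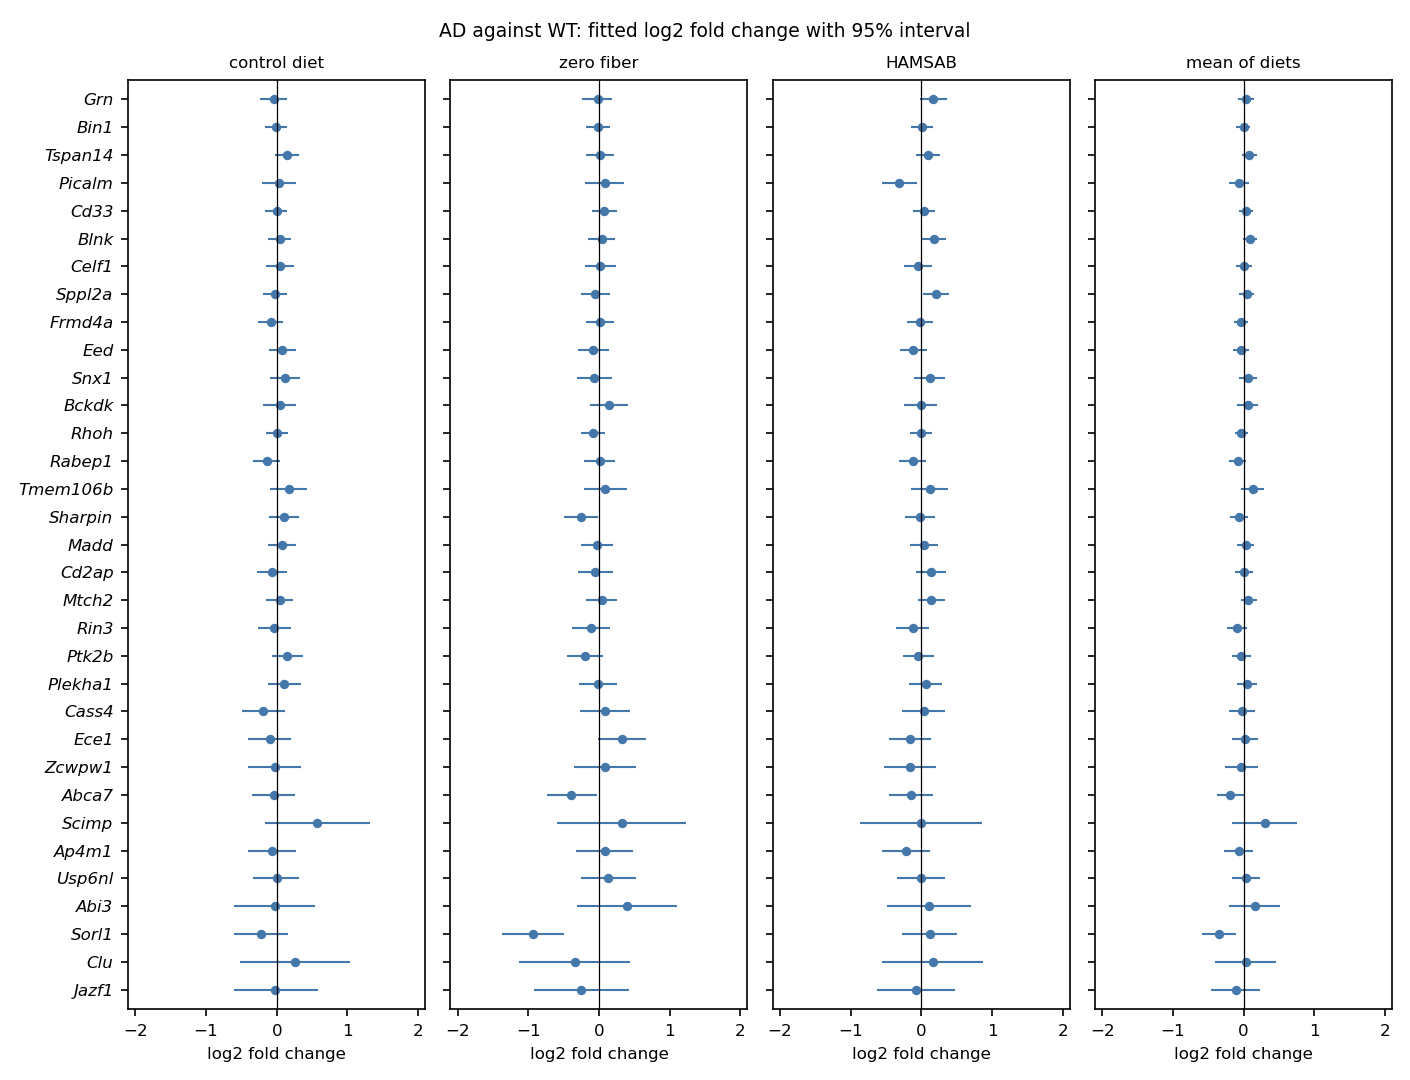
Fitted log2 fold change of AD against WT for the 33 tested genes, ordered by level, on each diet and over the mean of the diets; points are estimates and lines are 95% intervals. No gene was called, most intervals are centred near 0, and Sorl1 on zero fiber (-0.93) lies farthest out.

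Diet was compared within each genotype and over the mean of the genotypes, 9 comparisons that share libraries. In AD mice none of the 33 genes was called: 0 for HAMSAB against zero fiber, against 0.239% of all tested genes, 0 for HAMSAB against control (0.0743%) and 0 for zero fiber against control (0.0578%). DESeq2 and voom called 0 in each as well, and 3, 3 and 2 genes had an unadjusted p under 0.05, against 10.6%, 15.3% and 10.8% of all tested genes.

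In AD mice Grn came first between HAMSAB and zero fiber, at a median of 2390 CPM (1970 to 2570) against 1940 CPM (1190 to 2420), a log2 difference of 0.26 ± 0.09 (SE; edgeR adjusted p = 0.283). The lowest zero-fiber value, 1190 CPM, was that of the library of lowest depth, and without the 2 doubted libraries the difference was 0.18 (adjusted p = 0.495). Madd followed at 79.9 (58 to 117) against 98.4 CPM (61.8 to 117), and Snx1 at 94.3 (81.6 to 105) against 80.7 CPM (46.4 to 89.1), a log2 difference of 0.23 that was 0.20 without the doubted libraries. Between HAMSAB and control the first 3 were Tmem106b (80.1 against 95.1 CPM), Tspan14 (312 against 367 CPM) and Celf1 (252 against 276 CPM). Between zero fiber and control they were Tspan14 (304 against 367 CPM), Ece1 (35.5 against 27.3 CPM) and Madd (98.4 against 87.5 CPM), all medians of 8 libraries. The zero-fiber range of Tspan14, 224 to 334 CPM, overlapped the control range of 306 to 395 CPM.

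In WT mice 1 gene of the set was called. Sorl1 fell on HAMSAB relative to zero fiber, and 1 of 33 stands against 2.19% of all tested genes called in that comparison. At an unadjusted p under 0.05 there were 3 of the 33, against 12% of all tested genes. The 6 zero-fiber WT libraries had 21.7, 24.6, 28.7 and 42.1 CPM in females and 46 and 53.1 CPM in males. The 8 HAMSAB WT libraries had 19.1, 26.2, 26.6 and 32.4 CPM in females and 17.3, 18.9, 20.4 and 21.5 CPM in males. The groups overlapped in females, whose medians were 26.7 and 26.4 CPM, and were apart in males, with medians of 49.6 and 19.6 CPM. The fitted log2 fold change, which weights the sexes equally, was -0.76 ± 0.20 (SE), or 1.69-fold (edgeR adjusted p = 0.0361). Counts of Sorl1 in these libraries were 28 to 143 reads.

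That call rested on few libraries. It was lost without either zero_fiber_WT_M library (adjusted p = 0.119 without replicate 1 and 0.237 without replicate 2), without zero_fiber_WT_F replicate 2 (0.0934), and without HAMSAB_WT_F replicate 1 or 2 or HAMSAB_WT_M replicate 1, 2 or 3 (0.0606 to 0.0836). It held without each of the other 6 libraries and in all 7 other analyses tried. The libraries' title numbers fall into 2 series, below 2900 (23 libraries) and from 2900 up (22), which the labels do not explain, and HAMSAB_AD_F replicate 4 belongs to neither. As a plain difference of mean log2(CPM + 1), Sorl1 differed by -0.59 over all libraries, by -1.0 below 2900 (5 and 4 libraries) and by 0.19 from 2900 up (3 and 2), so the direction did not hold in the second series. Both zero-fiber WT males belong to the first. Markers of red blood cells (5 genes) also differed, with sums of 65.6 to 684 CPM in the zero-fiber WT libraries and of 8.88 to 140 CPM in the HAMSAB WT libraries, with Alas2 at 0 in 34 of the 46 libraries. Their part in the Sorl1 difference was not tested.

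The other WT diet comparisons gave no call in the set. For HAMSAB against control, 0 of 33 were called, against 0.281% of all tested genes, and for zero fiber against control 0 of 33, against 0.00825%. DESeq2 and voom called 0 in both, with 5 and 4 genes at an unadjusted p under 0.05, against 13.3% and 7.58% of all tested genes. Between HAMSAB and control the smallest p belonged to Eed, at 88.9 (68.4 to 97.4) against 72.3 CPM (51.6 to 89.4), Ptk2b, at 59.9 (50.8 to 74.3) against 48.6 CPM (33.5 to 64.3), and Scimp, at 5.47 (1.14 to 8.07) against 2.66 CPM (0.699 to 4.91). A share of 6.8% of the exon bases of Eed lies opposite E230029C05Rik, whose median count of 585 exceeded the 187 of Eed. Between zero fiber and control, Clu stood at 10.8 CPM (4.46 to 14) against 4.12 CPM (1.64 to 6.49), Madd at 97.1 (95.2 to 116) against 82.8 CPM (69.9 to 90.5) and Ptk2b at 58.5 (51.5 to 73.1) against 48.6 CPM. For Madd the 6 zero-fiber WT libraries all lay above the 8 control WT libraries, with a log2 difference of 0.30 ± 0.11 (SE; edgeR adjusted p = 0.425).

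Over the mean of the genotypes, Madd fell on HAMSAB relative to zero fiber, as the only called gene of the set (1 of 33, against 1.02% of all tested genes). An unadjusted p under 0.05 was reached by 6 of the 33, against 13.3% of all tested genes. Madd encodes an exchange factor that activates Rab GTPases of vesicle release (chromosome 2, 91137360 to 91183837). In WT mice the zero-fiber libraries spanned 95.2 to 116 CPM (median 97.1) and the HAMSAB libraries 67.6 to 101 CPM (median 80.5), with 1 HAMSAB library, HAMSAB_WT_M replicate 2, inside the zero-fiber range. In AD mice zero fiber gave 61.8 to 117 CPM (median 98.4) and HAMSAB 58 to 117 CPM (median 79.9), with wide overlap. The lowest AD zero-fiber value came from 4 reads in the library of lowest depth, and the next was 85.0 CPM. The fitted log2 fold change was -0.29 ± 0.07 (SE), or 1.22-fold (edgeR adjusted p = 0.0351). The separate values were -0.32 ± 0.11 in WT and -0.25 ± 0.10 in AD mice, neither called. Over both genotypes Madd had medians of 85.7 CPM on the control diet, 97.2 CPM on zero fiber and 79.9 CPM with HAMSAB.

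The Madd call sat at the threshold. Without the 2 doubted libraries the fold change was -0.28 with adjusted p = 0.052, and with a term for the title series -0.29 with adjusted p = 0.0515. It was also lost (adjusted p 0.0507 to 0.137, with differences from -0.31 to -0.26) when any 1 of 14 libraries was left out: zero_fiber_WT_M replicate 1 or 2, zero_fiber_WT_F replicate 3, zero_fiber_AD_F replicate 1 or 2, zero_fiber_AD_M replicate 1 or 4, HAMSAB_WT_F replicate 1 or 4, HAMSAB_WT_M replicate 1, HAMSAB_AD_F replicate 1 or 4, and HAMSAB_AD_M replicate 1 or 3. The direction held in both title series, with plain log2 differences of -0.22 below 2900 (10 and 8 libraries) and -0.26 from 2900 up (5 and 6), against -0.24 over all. Madd is also expressed by neurons. The 7 neuronal markers summed to 6.39 to 17.5 CPM in zero-fiber WT and 7.97 to 31.1 CPM in HAMSAB WT libraries, and to 7.96 to 26.9 and 6.44 to 29.6 CPM in AD libraries, with Tubb3 at 0 in 26 of 46, and none of the 3 tested was called. Markers of other cells moved with this comparison. All 4 tested hemoglobin genes of the 5 erythroid markers were called lower on HAMSAB (median log2 difference -2.26), and the sums were 65.6 to 684 and 21.6 to 423 CPM in zero-fiber WT and AD libraries against 8.88 to 140 and 1.7 to 157 CPM in HAMSAB ones. Of 8 perivascular macrophage markers 7 were lower and Mrc1 was called. Their sums, mostly Stab1, were 213 to 322 and 183 to 464 CPM on zero fiber against 188 to 258 and 170 to 222 CPM with HAMSAB. The part of these cells in the Madd difference was not tested.

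Tmem106b fell on HAMSAB relative to the control diet over the mean of the genotypes, and no other gene of the set was called there (1 of 33, against 4.52% of all tested genes). An unadjusted p under 0.05 was reached by 12 of the 33, against 22% of all tested genes. Control libraries had 66.8 to 138 CPM in WT (median 90.3) and 77.4 to 192 CPM in AD mice (median 95.1). HAMSAB libraries had 63.3 to 86.0 CPM in WT (median 75.8) and 60.2 to 97.2 CPM in AD mice (median 80.1). Both pairs overlapped, and the 2 highest values, 192 CPM in control_AD_F replicate 4 and 138 CPM in control_WT_M replicate 3, stood apart from the rest of their groups. The fitted log2 fold change was -0.31 ± 0.09 (SE), or 1.24-fold (edgeR adjusted p = 0.0383). The separate values were -0.29 in WT and -0.34 in AD mice, neither called. Tmem106b on zero fiber had a median of 89.9 CPM, near that of the control diet at 91.5 CPM.

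Tmem106b was no longer called with DESeq2's size factors (adjusted p = 0.0505) or with a title series term (0.0954). Leaving out 1 library ended the call for 13 of 32 (adjusted p 0.0526 to 0.0848). These were control_WT_M replicate 3, control_WT_F replicate 2, control_AD_F replicate 4, control_AD_M replicate 1, HAMSAB_WT_M replicate 1, 2 or 3, HAMSAB_WT_F replicate 1 or 4, HAMSAB_AD_F replicate 1 or 4, and HAMSAB_AD_M replicate 3 or 4. Without control_AD_F replicate 4 the log2 difference was -0.24. Of 3 tested neuronal markers Syt1 was called higher on HAMSAB than on control, with sums of 7.97 to 31.1 and 6.44 to 29.6 CPM in HAMSAB WT and AD libraries against 2.79 to 16.4 and 2.81 to 9.04 CPM in control ones, and their part was not tested. The direction was the same in both title series, with plain log2 differences of -0.25 below 2900 (10 and 5 libraries) and -0.29 from 2900 up (5 and 11), against -0.29 over all.

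**Figure D3:**
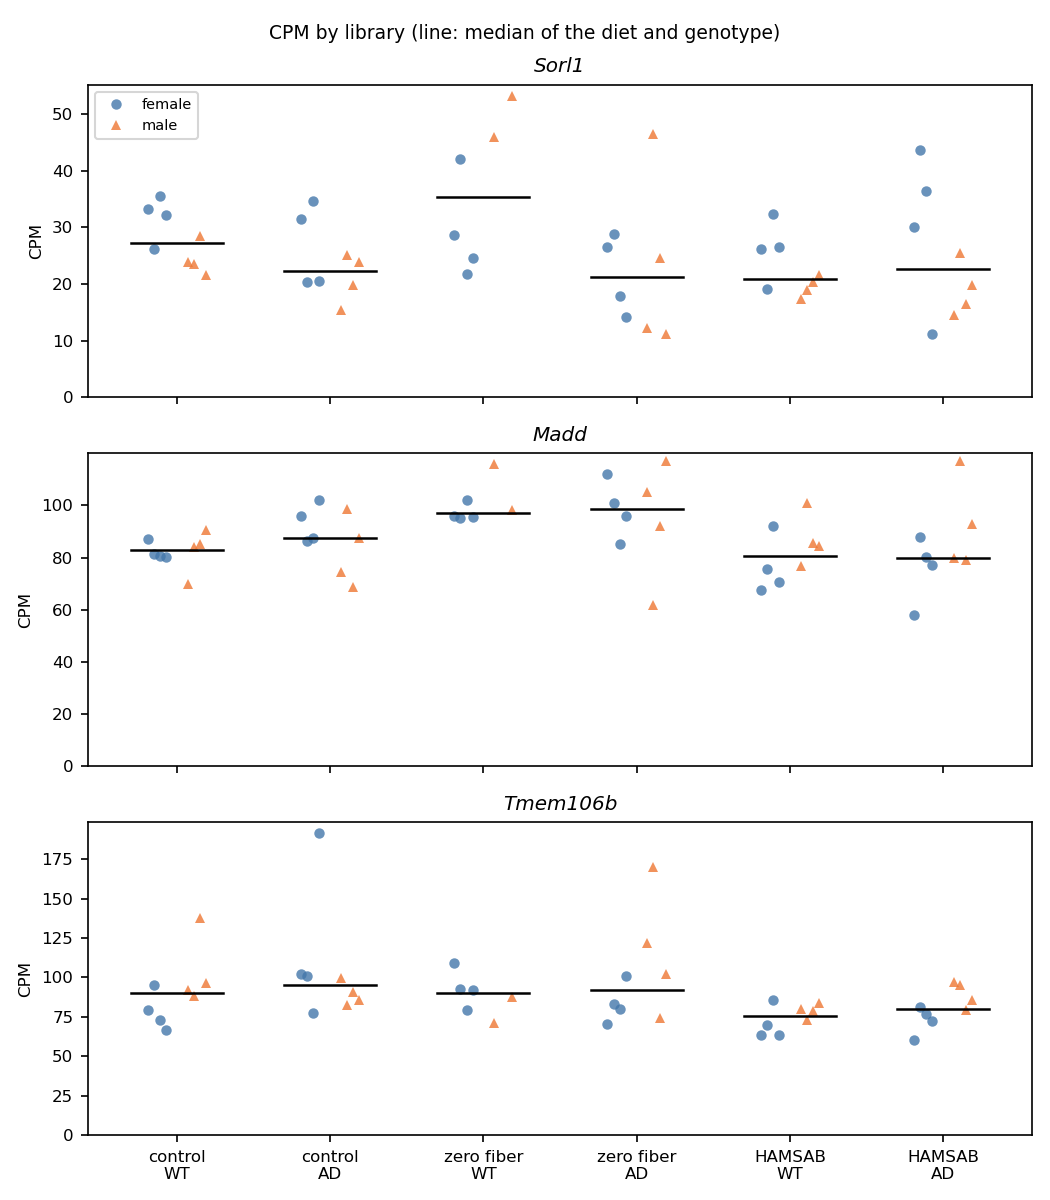
CPM of Sorl1, Madd and Tmem106b in each library by diet and genotype; circles are females, triangles males, and lines the median of each diet and genotype. The 2 zero-fiber WT males (46 and 53.1 CPM) lie above the other WT libraries for Sorl1, Madd is lower on HAMSAB than on zero fiber in most WT libraries, and Tmem106b is pulled up on the control diet by values of 138 and 192 CPM.

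Over the mean of the genotypes no gene of the set was called for zero fiber against control (0 of 33, against 0.363% of all tested genes, with 5 at an unadjusted p under 0.05, against 13.1%). DESeq2 called Tspan14 (adjusted p = 0.0373) and voom called 0. Tspan14 had a median of 306 CPM on zero fiber (224 to 366) and 345 CPM on the control diet (281 to 399), a log2 difference of -0.24 ± 0.06 (SE; edgeR adjusted p = 0.0718) that was -0.21 without the doubted libraries (adjusted p = 0.126). Its level on HAMSAB was 309 CPM (244 to 364), with a difference from control of -0.18 ± 0.06 (edgeR adjusted p = 0.066) that DESeq2 and voom called. Both comparisons use the same control libraries. In zero-fiber WT males Tspan14 was 247 and 248 CPM, against 302 to 366 CPM in zero-fiber WT females.

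Madd and Clu followed Tspan14 in that comparison. Madd differed by 0.25 ± 0.07 (SE; edgeR adjusted p = 0.101). Clu, at 6.81 CPM on zero fiber (0 to 14) and 4.87 CPM on control (1.64 to 7.53), had a log2 difference of 0.88 ± 0.27 (edgeR adjusted p = 0.125). It was called when low-count genes were not filtered (adjusted p = 0.00315) and without zero_fiber_AD_M replicate 4 (adjusted p = 0.0382). Clu is abundant in astrocytes. The 6 astrocyte markers summed to 255 to 354 CPM in zero-fiber WT and 155 to 334 CPM in zero-fiber AD libraries (medians 287 and 236). In control libraries they summed to 185 to 352 CPM in WT and 187 to 377 CPM in AD (medians 232 and 298). Over all libraries the range was 151 to 377 CPM, nearly all of it Slc1a3 (median 243 CPM), with Gfap at 0 in 26 and Aldh1l1 at 0 in 17 libraries. The 4 tested hemoglobin genes were called higher on zero fiber than on control (median log2 difference 2.66), and so was the neuronal gene Syt1. The part of these markers was not tested.

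By role, calls were few. Among the 9 endocytic genes, 2 were higher and 7 lower on HAMSAB than on control over the mean of the genotypes, with none called and a median log2 difference of -0.05. Usp6nl had the smallest p of these, at 20.6 CPM on HAMSAB (12.8 to 25.9) and 25.9 CPM on control (18.7 to 35.4), with -0.32 ± 0.12 (SE; edgeR adjusted p = 0.0881). The 8 immune genes were split 3 higher and 5 lower (median -0.03), with Scimp at 0.60 ± 0.25. Of 4 tested lysosomal and secreted genes 3 were higher, and the called one, Tmem106b, was lower. Grn, the other lysosomal gene of abundance, had medians of 2090 CPM on HAMSAB (1960 to 2570) and 2150 CPM on control (1840 to 2600), whereas its fitted log2 difference, which averages groups, was 0.05 ± 0.07 (SE; edgeR adjusted p = 0.743). Over all 33 genes the median log2 difference was -0.04, against 0.00 over all tested genes, and the median absolute difference was 0.09, against 0.13.

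Over the mean of the genotypes, large diet effects could be bounded for most of the set. The 95% interval lay within 1.5-fold in either direction for 30 of 33 genes between HAMSAB and zero fiber, all but Jazf1, Scimp and Clu. It did so for 29 between HAMSAB and control and for 29 between zero fiber and control, in both cases all but Abi3, Jazf1, Scimp and Clu. Jazf1, Scimp, Clu and Abi3 had 465 to 1285 reads each over all libraries. Within 1 genotype the intervals were wider: between HAMSAB and zero fiber they lay within 1.5-fold for 28 of 33 genes in AD and for 26 in WT mice, where Sorl1 was among those outside.

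**Figure D4:**
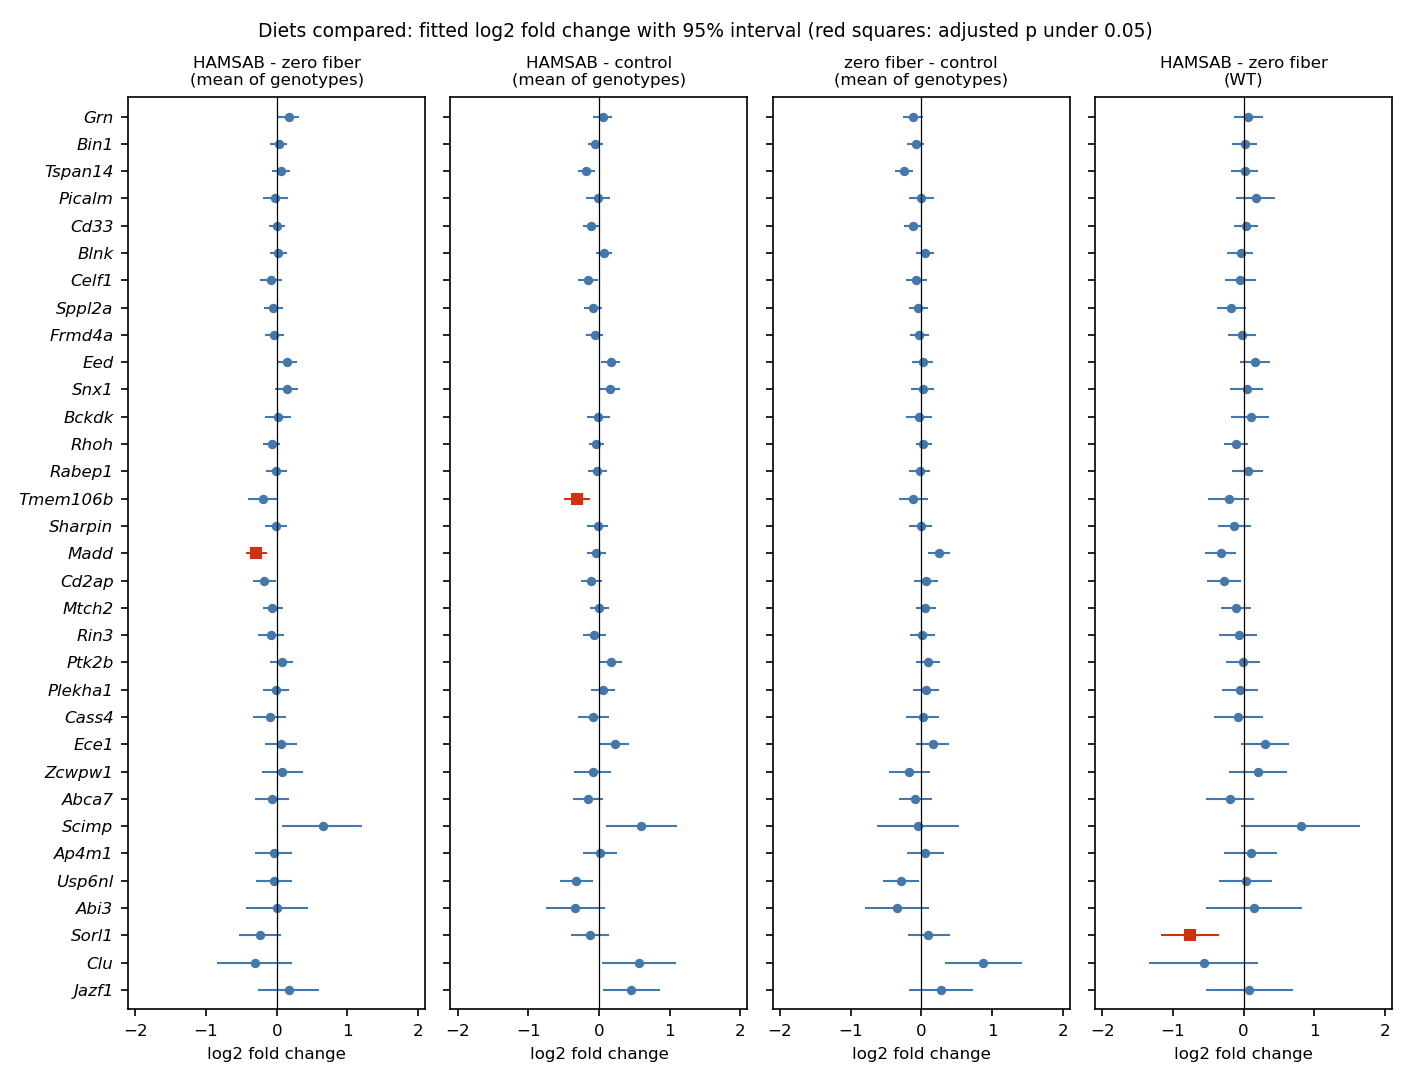
Fitted log2 fold changes of the 33 tested genes between diets, over the mean of the genotypes (3 left panels) and in WT mice (right panel); points are estimates, lines 95% intervals, and red squares the called genes. Madd (-0.29), Tmem106b (-0.31) and Sorl1 (-0.76) are the 3 called values, and intervals widen toward the low-level genes at the bottom.

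The diet effects were then compared between the genotypes. For HAMSAB against zero fiber the difference between the effect in AD and that in WT mice was called for 0 of 33 genes, against 1.08% of all tested genes. It was called for 0 of 33 for HAMSAB against control (0%) and for 0 of 33 for zero fiber against control (0%). DESeq2 and voom called 0 in each, and 3, 0 and 3 genes had an unadjusted p under 0.05, against 9.46%, 5.53% and 6.17% of all tested genes. Sorl1 had the smallest p in the first. Its HAMSAB medians were 22.7 CPM in AD (11.1 to 43.7) and 20.9 CPM in WT mice (17.3 to 32.4), against 21.2 and 35.4 CPM on zero fiber, and the difference of effects was 1.05 ± 0.29 on the log2 scale (SE; edgeR adjusted p = 0.0635). It was called without the 2 doubted libraries (1.14, adjusted p = 0.0372) and with a title series term (1.18, adjusted p = 0.00959). Leaving out 1 library brought it past the threshold in 5 fits, without HAMSAB_AD_F replicate 4 (adjusted p = 0.0136), HAMSAB_AD_M replicate 1 (0.038), HAMSAB_WT_F replicate 3 (0.0466) or zero_fiber_AD_F replicate 1 or 2 (0.0472 and 0.0454). It stayed uncalled in every other such fit, among them those without zero_fiber_WT_M replicate 1 or 2.

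Ece1 and Picalm came next in that comparison, at -0.48 ± 0.23 and -0.38 ± 0.18 (SE). For HAMSAB against control the first 3 were Picalm (-0.34 ± 0.17), Sppl2a (0.24 ± 0.13) and Grn (0.21 ± 0.13). For zero fiber against control they were Sorl1 (-0.71 ± 0.29), Sharpin (-0.35 ± 0.16) and Ptk2b (-0.35 ± 0.17), none called. The intervals of these differences of differences were wide, with a median half-width of 0.33 on the log2 scale for HAMSAB against zero fiber, and they lay within 1.5-fold for 22 of 33 genes.

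Sex made no called difference in the set (0 of 33, against 0.124% of all tested genes, with 2 at an unadjusted p under 0.05, against 10.5%; DESeq2 and voom called 0). In females 25 of the 33 genes were lower and 8 higher than in males, with a median log2 difference of -0.05, whereas 51.8% of all tested genes were higher in females. The smallest p belonged to Tspan14 (0.15 ± 0.05, SE), Frmd4a (-0.15 ± 0.05) and Sorl1 (0.22 ± 0.12). Frmd4a in AD mice on HAMSAB had medians of 512 CPM in females (489 to 583) and 628 CPM in males (562 to 649), which overlapped. For 27 of 33 genes the interval lay within 1.25-fold. Without the doubted libraries, 1 of which has a doubted sex label, 0 were called and the differences of Tspan14, Frmd4a and Sorl1 were 0.17, -0.16 and 0.22.

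Partners of these genes were looked up in lists of the same pathways, and their counts stand beside the shares of all tested genes called, given above for each comparison. The partner calls come from the main edgeR fit alone. Whether they hold in the alternative fits or without single libraries was not tested. Of 30 genes of endocytosis and retromer, all tested, clathrin heavy chain Cltc was called higher on HAMSAB than zero fiber in WT mice (log2 0.96 ± 0.22, SE), 1 of 30 against 2.19% of all tested genes. The AP-2 subunit Ap2a2 was lower and Rin2 higher in AD than WT mice on HAMSAB (-0.73 ± 0.18 and 0.46 ± 0.13), 2 of 30 against 1.68%. The early endosomal tether Eea1 fell on both HAMSAB (-0.59 ± 0.11) and zero fiber (-0.54 ± 0.12) relative to control over the mean of the genotypes, where Epn1 fell and the retromer subunit Vps29 rose on HAMSAB (-0.25 ± 0.08 and 0.30 ± 0.07). These are 3 of 30 against 4.52% on HAMSAB and 1 of 30 against 0.363% on zero fiber. For Ap2a2 and Cltc the HAMSAB against zero-fiber effect was lower in AD than in WT mice (-1.09 ± 0.28 and -1.07 ± 0.29), 2 of 30 against 1.08%.

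Of 13 tested partners in immunoreceptor signalling, the kinase Syk (-0.32 ± 0.07) and the ubiquitin ligase Cbl (-0.36 ± 0.07) fell on HAMSAB relative to control, and the phosphatase Ptpn6 fell on zero fiber (-0.29 ± 0.07), all over the mean of the genotypes. These are 2 of 13 against 4.52% of all tested genes and 1 of 13 against 0.363%. Cbl also fell in WT mice fitted separately (-0.51 ± 0.10), 1 of 13 against 0.281%. Blnk, which acts with Syk, was at 208 CPM on HAMSAB and 200 CPM on control and was not called. Among 15 tested integrin and adhesion partners Itgb1 fell on HAMSAB relative to control (-0.21 ± 0.06), 1 of 15 against 4.52%. Of 14 lysosomal partners of Grn and Tmem106b, the proteases Ctsb and Ctsl rose on HAMSAB relative to zero fiber over the mean of the genotypes (0.37 ± 0.08 and 0.49 ± 0.12), 2 of 14 against 1.02%, where Grn differed by 0.17 ± 0.07 (edgeR adjusted p = 0.284).

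Adam10, the protease served by Tspan14, rose on HAMSAB relative to zero fiber in WT mice (0.93 ± 0.25), 1 of 3 tested genes of its list against 2.19% of all tested genes, while Tspan14 stood at 306 and 313 CPM. None of the 3 AP-4 subunits, 6 PRC2 subunits, 3 subunits of the linear ubiquitin ligase or 5 tested genes of the branched-chain keto acid dehydrogenase was called in any of the 17 comparisons. Of 30 further genes named at Alzheimer loci, 22 were tested. Among them Adam10 and Ctsb, which the other lists also hold, were called as above, and Tpcn1, an endolysosomal channel, fell on HAMSAB relative to control over the mean of the genotypes (-0.27 ± 0.08), 1 of 22 against 4.52%.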

How the data were processed

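RNA of the microglia was extracted on a QIAcube with the RNeasy Micro kit and made into standard Illumina libraries, per the labels' protocols. The table the authors deposited holds unnormalized read counts of 54134 gene symbols in 46 libraries. Per the submitters' processing notes, the tools were STAR (2.5.2b) and featureCounts (1.5.2) and the build was GRCm38. Which annotation release was used, whether strand was counted and what was done with multi-mapping reads is not given in the sources used here, and reads of genes that overlap on opposite strands cannot be told apart.

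Library totals ran from 52114 to 6950429 counts. No pair was identical, and replicates differed by more than sampling noise (chi-square per degree of freedom at least 1.62). edgeR 4.0.16 (R 4.3.3) was fitted to the 46 libraries together, 1 mean per group (12 groups), TMM factors (0.918 to 1.25), filterByExpr (12121 genes kept) and the quasi-likelihood F test. There were 17 comparisons, each with Benjamini-Hochberg adjustment over the 12121 genes and calls at 0.05. CPM uses TMM-adjusted library sizes, and exon lengths and coordinates are from GENCODE M21 (GRCm38). Intervals are log2 fold change with its standard error at 95%. The script was tested on simulated counts.

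The 37 genes, their role lists, the partner and marker lists and the tests were chosen with earlier results of these data known. All 37 could be named. Library or group values are given for genes called in a comparison and, where none was called, for the 3 of smallest p. Partner genes are named where called, at most 4 per list and comparison, and calls of partner and marker genes come from the main edgeR fit alone. Alternatives were no low-count filter, size factors of DESeq2, the DESeq2 1.42.0 test, limma 3.58.1 voom with quality weights, a title series term, only the libraries compared, a fit without the 2 doubted libraries, and leaving out each library in turn. No protein sequence was used here. Some items are not reported here.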

Additional observations from a re-analysis of the deposited data

Results flagged for a closer look

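The values of Sorl1, Madd and Tmem106b were examined for single libraries that stand apart, in the 6 combinations of diet and genotype each, 18 groups of 6 to 8 libraries. By Dixon's criterion chance alone sets apart about 1 in 20 such groups, and 3 were set apart here. Madd was at 116 CPM in zero_fiber_WT_M replicate 1, against 95.2 to 102 CPM in the other 5 zero-fiber WT libraries. Tmem106b was at 192 CPM in control_AD_F replicate 4, against 77.4 to 102 CPM in the other 7 control AD libraries. It was at 138 CPM in control_WT_M replicate 3, against 66.8 to 96.5 CPM in the other 7 control WT libraries. Each of the 3 libraries belongs to the side of a called comparison where the gene was higher, and each call was lost without it: Madd between HAMSAB and zero fiber (adjusted p = 0.137), and Tmem106b between HAMSAB and control (adjusted p = 0.0779 without the first library and 0.0848 without the second).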

How the results depend on the processing

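Of 83 fold changes recomputed under the alternatives, the 3 called ones kept their sign in every fit. Over all 83, 41 of 2568 recomputed values changed sign. The plain Sorl1 difference between HAMSAB and zero fiber in WT mice, by contrast, was -1.0 in the title series below 2900 and 0.19 from 2900 up. The 3 calls gave 1 gene each in their comparisons. For HAMSAB against zero fiber over the mean of the genotypes the count was 0 with no filter on low counts, with a title series term, without the 2 doubted libraries and with only the libraries compared (Madd lost). For HAMSAB against control over that mean it was 0 with DESeq2 size factors and with a title series term, and 2 with the DESeq2 test and with voom (Tmem106b and Tspan14). Genes were gained elsewhere. With no filter 1 was called for AD against WT on zero fiber (Sorl1, adjusted p = 8.89e-05) and over the mean of the diets (Sorl1), 1 for zero fiber against control in WT mice (Clu, 0.0124) and over the mean of the genotypes (Clu), and 1 for the difference between genotypes in HAMSAB against zero fiber (Sorl1). A title series term gave 1 for AD against WT on zero fiber (Sorl1, 0.0436). Both that term and leaving out the 2 doubted libraries gave 1 for that difference between genotypes. The DESeq2 test gave 1 for zero fiber against control over the mean of the genotypes (Tspan14). The causes were not tested. Leaving out 1 library at a time gave counts of 0 to 2 for HAMSAB against control over the mean of the genotypes and 0 to 1 for HAMSAB against zero fiber in WT mice, over the mean of the genotypes and between genotypes, and for zero fiber against control over that mean; in every other comparison it gave 0. No paired analysis was possible because the labels give the libraries no replicate numbers. Depth limits Scimp, Clu, Jazf1 and Abi3 most, and the 4 untested genes allow no comparison.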
